A study of Mus musculus with 20 samples.

Results

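The 10 genes described here encode the ligands (Tgfb1, Tgfb3), receptors (Tgfbr1, Tgfbr2, Tgfbr3), SMAD proteins (Smad2, Smad3, Smad7) and SMAD corepressors (Ski, Skil) of the TGF-beta pathway. They were chosen by symbol from a pathway list. All 10 were found among the 39179 gene IDs of every library, and all 10 passed the filter on low counts in both parts of the series.

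TGF-beta is secreted in a latent form and, once released, binds TGFBR2, which recruits and activates TGFBR1, while TGFBR3 (betaglycan) presents ligand to the signalling pair. The activated receptor phosphorylates SMAD2 and SMAD3, which join SMAD4 and enter the nucleus, SMAD7 shuts the receptor off, and SKI and SKIL (SnoN) hold SMAD complexes in a repressed state. In CD4 T cells TGF-beta acts with IL-6 to give IL-17-producing Th17 cells and, without inflammatory cytokines, favours Foxp3-positive regulatory T cells.

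RNA of mouse CD4 T cells was counted per gene in 20 libraries in 2 parts of 10 libraries each. In the transfer part, the groups were colon Il6ra-/- cells (3 libraries), colon wild-type cells (3 libraries), Il6ra-/- cells before transfer (2 libraries) and wild-type cells before transfer (2 libraries). All these cells were C57BL/6 cells with the IL-17F/Thy1.1 reporter allele, CD45.2 where Il6ra-/- and CD45.1 where wild type. They had all spent 6 days in culture with hyper-IL-6 (20 ng/ml), TGF-beta (2.5 ng/ml), anti-CD3, antibodies to IFN-gamma and IL-4, and irradiated splenic antigen-presenting cells. Hyper-IL-6 joins IL-6 and the soluble IL-6 receptor in 1 molecule, so that cells lacking the receptor can respond. Reporter-positive cells were sorted, and 200000 cells of each genotype were placed together into Rag1-/- hosts, which lack T and B cells. CD4+ TCRb+ cells were sorted from pooled colons 4 weeks later by CD45 allele, with no gate on the reporter, whereas the libraries before transfer were gated on it. Library number 0 came from the first experiment and numbers 1 and 2 from the second. In the culture part, the groups of 2 libraries each were Il6ra-/- cells with hyper-IL-6 at 63 ng/ml, wild-type cells with hyper-IL-6 at 63 ng/ml, wild-type cells with IL-6 at 20 ng/ml, Il6ra-/- naive cells and wild-type naive cells. The 3 cultured groups again received TGF-beta at 2.5 ng/ml over 6 days, and all 10 libraries carried the reporter allele (labelled Hz) and, per the labels, a 4 h stimulation with PMA and ionomycin. Ages are not given in the sources used here, and neither is whether the culture libraries came from separate animals, and p-values therefore rest on library-to-library spread, which may be technical.

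Libraries held 12718633 to 23745060 gene counts in the transfer part and 20160774 to 46848016 in the culture part. Levels below are CPM (counts scaled to a library of fixed size) on TMM-scaled library sizes, as mean ± SD, and are compared only within a part of the series, since each was scaled and fitted on its own. Log2 fold changes are ± SE, and adjusted p-values are from edgeR's quasi-likelihood test with Benjamini-Hochberg adjustment over all genes tested. A gene passed at an adjusted p under 0.05. CPM is a share of a library, and in these bulk samples fewer cells of a type and less RNA per cell cannot be told apart. Il6ra, the targeted gene, had 4.85, 3.46 and 2.53 CPM in colon Il6ra-/- libraries, against 10.7, 4.31 and 5.39 CPM in colon wild-type libraries. It was read in every other Il6ra-/- library too (80.5 and 123 CPM before transfer, 199 and 213 CPM in naive cells), so counts over the whole gene do not check the genotype labels.

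All 8 CD4 T cell markers (Cd3e, Cd4, Lck and others) were detected in every library, with a summed level of 1880 to 7520 CPM. In the culture part this sum was 1880 to 2080 CPM in the 6 cultured libraries, against 4220 to 4760 CPM in the 4 naive ones, and 7 of the 8 markers fell in each culture, with a median log2 fold change of -1.36 in Il6ra-/- cells with hyper-IL-6, -1.53 in wild-type cells with hyper-IL-6 and -1.54 with IL-6. These falls moved with those of Tgfbr2, Tgfbr3, Smad3, Smad7 and Ski given below, and their part in them was not tested. Colon libraries also held transcripts of other cell types, which bears on each colon result below. The 8 epithelial markers were all detected there, with summed levels of 163 to 322 CPM in Il6ra-/- and 179 to 639 CPM in wild-type colon libraries, against 31.6 to 97.6 CPM in Il6ra-/- and 37.8 to 96.4 CPM in wild-type libraries before transfer. The 8 macrophage and dendritic cell markers were also all detected, at 124 to 312 CPM in Il6ra-/- and 130 to 315 CPM in wild-type colon libraries, against 10.4 to 57.2 CPM in Il6ra-/- and 18.5 to 35.8 CPM in wild-type libraries before transfer. The 8 stromal and endothelial markers summed to 118 to 157 CPM in Il6ra-/- and 125 to 179 CPM in wild-type colon libraries. Before transfer the sums were 141 to 149 CPM and 127 CPM in the same order, so the stages overlapped. Of the 7 tested, 5 rose in Il6ra-/- and 4 in wild-type cells, and 0 fell. Among them, the collagen gene Col3a1 had 1.79 to 11.4 CPM over the 6 colon libraries and was at 0 in all 4 libraries before transfer. The part of these cells in the colon values was not tested.

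Of the 10 genes, 4 changed between cells before transfer and colon cells in each genotype, 3 upward (Tgfbr2, Smad3, Smad7) and 1 downward (Tgfb3). Of 14225 genes tested, 27% passed in Il6ra-/- cells (13.8% higher and 13.2% lower in the colon) and 32.9% in wild-type cells (17.1% higher and 15.8% lower). Between naive and cultured cells, 8 of the 10 changed in Il6ra-/- cells with hyper-IL-6 (3 higher, 5 lower), 9 in wild-type cells with hyper-IL-6 (4 higher, 5 lower) and 8 in wild-type cells with IL-6 (3 higher, 5 lower). Of 14926 genes tested, 72% passed in the first of these comparisons (37.5% higher, 34.4% lower), 70.3% in the second (36.8% higher, 33.5% lower) and 70.6% in the third (37% higher, 33.6% lower). The median log2 fold change of the 10 genes was 0.07 in Il6ra-/- and 0.21 in wild-type colon cells, where over all genes it was -0.00 and -0.02. After culture it was -0.61 in Il6ra-/- cells with hyper-IL-6, -0.70 in wild-type cells with hyper-IL-6 and -0.56 with IL-6, where over all genes it was 0.04, 0.04 and 0.05. The counts for the pathway are thus near the share over all genes and are no result about the pathway as a list. With 1 library left out in turn, 3 of the 10 passed in Il6ra-/- colon cells against cells before transfer in every such fit, as Tgfb3 missed the threshold in 4 of them and Smad3 in 1. What the values show is which of its components moved and which way.

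**Figure D1:**
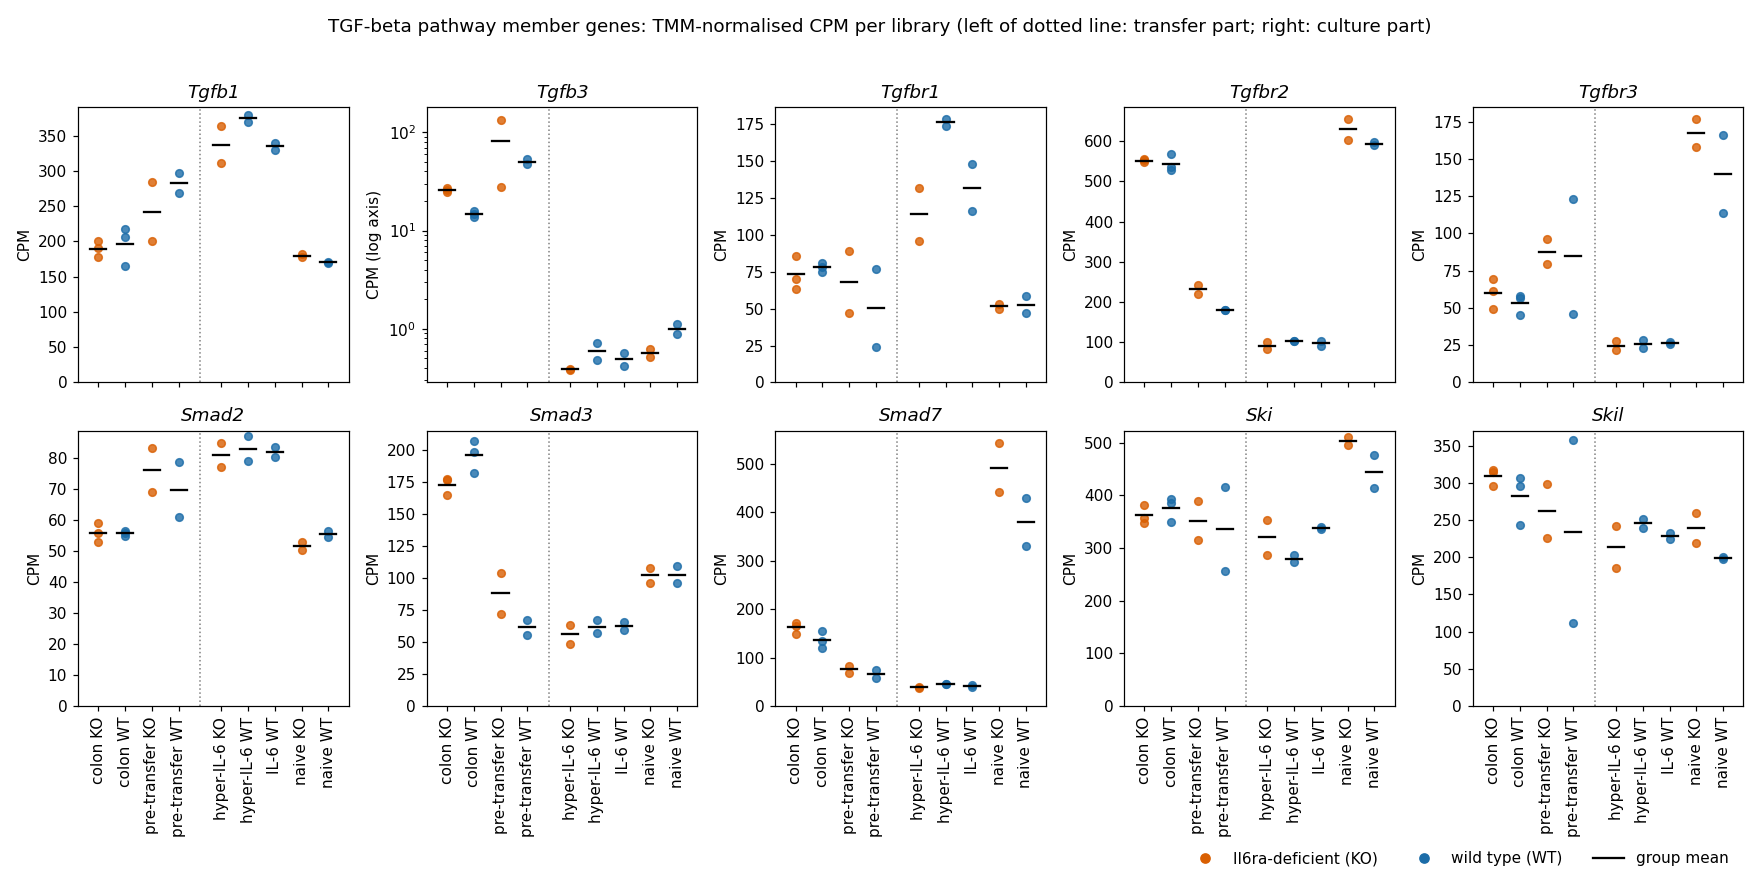
CPM of each of the 10 genes in every library (points) by group along the horizontal axis, with group means as bars, on linear axes from 0 except for Tgfb3, whose axis is logarithmic. KO stands for Il6ra-/-. Tgfbr2 and Smad7 are high in naive cells and low in all 6 cultured libraries, and Tgfbr2 is at 527 CPM or more in all 6 colon libraries, above the 179 to 243 CPM before transfer.

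The start-site windows of Tgfbr2, Smad3 and Tgfbr1 are shown because Tgfbr2 and Smad3 rose together in the colon and because both receptor chains moved in opposite directions in culture. They are from RefSeq (GRCm38.p6), run 5′ to 3′ on the gene's strand from 250 bases before to 50 bases after the annotated start, and lie at chr9:116175314-116175613 (minus strand, Tgfbr2), chr9:63757945-63758244 (minus strand, Smad3) and chr4:47352972-47353271 (plus strand, the first of 2 annotated starts of Tgfbr1). Capitals mark CAGAC, the core of a SMAD-binding element, and GGGCGG, the core of a GC box, each on either strand.
Tgfbr2: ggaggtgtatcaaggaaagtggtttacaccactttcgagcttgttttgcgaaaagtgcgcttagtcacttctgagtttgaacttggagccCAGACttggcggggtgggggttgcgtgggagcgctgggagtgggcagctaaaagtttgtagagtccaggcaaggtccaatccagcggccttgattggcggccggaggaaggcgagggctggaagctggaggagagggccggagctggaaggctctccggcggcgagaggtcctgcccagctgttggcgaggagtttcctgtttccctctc
Smad3: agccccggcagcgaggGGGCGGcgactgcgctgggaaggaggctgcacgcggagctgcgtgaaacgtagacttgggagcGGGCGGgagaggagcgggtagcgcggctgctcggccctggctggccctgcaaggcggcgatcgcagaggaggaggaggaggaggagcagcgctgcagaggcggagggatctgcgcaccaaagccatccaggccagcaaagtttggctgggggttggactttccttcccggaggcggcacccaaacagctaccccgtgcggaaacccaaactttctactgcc
Tgfbr1: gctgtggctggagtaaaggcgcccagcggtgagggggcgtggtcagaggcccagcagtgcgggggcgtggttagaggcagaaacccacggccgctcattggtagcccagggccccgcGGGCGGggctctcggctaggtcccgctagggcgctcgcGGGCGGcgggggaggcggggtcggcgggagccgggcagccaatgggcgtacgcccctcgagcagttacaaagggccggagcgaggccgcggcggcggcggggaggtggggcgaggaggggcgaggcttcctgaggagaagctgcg
The Tgfbr2 window held CAGAC at position -160 from the start and no GGGCGG. The Smad3 window held GGGCGG at positions -234 and -171 and the Tgfbr1 window at -133 and -95, with CAGAC in neither. The window of the other annotated Tgfbr1 start (chr4:47385966-47386265, plus strand) held CAGAC at -203 and no GGGCGG. Among 32851 such windows of mouse genes, 49.6% held CAGAC and 35.7% held GGGCGG, so either match is common. Windows were at hand for 5 of the 10 genes (Tgfb1, Tgfbr1, Tgfbr2, Smad3 and Ski), and the motifs did not overlap each other in the windows shown.

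Tgfb1 (ENSMUSG00000002603, chromosome 7, 25687002 to 25705077, GRCm38) encodes the main TGF-beta of lymphocytes and was the more abundant ligand per length in every library but 1. In culture, Tgfb1 had 311 and 364 CPM in Il6ra-/- cells with hyper-IL-6, against 182 and 178 CPM in Il6ra-/- naive cells. Wild-type cells had 380 and 370 CPM with hyper-IL-6 and 340 and 330 CPM with IL-6, against 170 and 171 CPM in naive cells. All 6 cultured libraries lay above all 4 naive ones. The log2 fold change was 0.91 ± 0.09 in Il6ra-/- cells with hyper-IL-6 (edgeR adjusted p = 5.42e-06), 1.14 ± 0.09 in wild-type cells with hyper-IL-6 (adjusted p = 9.81e-07) and 0.97 ± 0.09 in wild-type cells with IL-6 (adjusted p = 3.31e-06). After transfer the gene had 201, 191 and 178 CPM in Il6ra-/- colon libraries, against 284 and 200 CPM before transfer, and the groups overlapped (log2 fold change -0.35 ± 0.21, edgeR adjusted p = 0.243). In wild-type cells it had 217, 206 and 165 CPM in the colon, against 297 and 269 CPM before transfer, with no overlap, and it missed the threshold (-0.53 ± 0.20, edgeR adjusted p = 0.0677). With DESeq2 this wild-type difference passed (-0.52 ± 0.21, DESeq2 adjusted p = 0.0402).

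Tgfb3 (ENSMUSG00000021253, chromosome 12, 86056745 to 86079041) encodes the TGF-beta isoform that has been tied to pathogenic Th17 cells in mice. In the culture part it was at 0.381 to 1.12 CPM (10 to 27 reads per library) and passed in none of the comparisons. After transfer it had 24.9, 25.8 and 27.0 CPM in Il6ra-/- colon libraries, against 27.9 and 135 CPM in Il6ra-/- cells before transfer. Wild-type libraries had 14.9, 13.6 and 15.7 CPM in the colon, against 47.1 and 53.8 CPM before transfer. All 6 colon values lay below all 4 values before transfer, and 1 library before transfer (Il6ra-/-, number 1) stood far above the other 3. Tgfb3 fell in the colon in Il6ra-/- cells (log2 fold change -1.65 ± 0.46, edgeR adjusted p = 0.0216) and in wild-type cells (-1.78 ± 0.46, edgeR adjusted p = 0.0143). The Il6ra-/- value rested on that 1 library, since without it the log2 fold change was -0.11 ± 0.22 (edgeR adjusted p = 0.775), and the wild-type value without library 1 before transfer was -1.71 ± 0.57 (edgeR adjusted p = 0.0559). Both transcripts annotated over Tgfb3 on the other strand, Gm37804 and Gm48008, share 4.82% and 7.6% of its exon bases and are not counted apart, so their reads cannot be told from its own without strand.

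Among the receptors, the gene of the ligand-binding chain and the gene of the kinase it activates moved in opposite directions in culture. Tgfbr2 (ENSMUSG00000032440, chromosome 9, 116084293 to 116175360) encodes the ligand-binding type II receptor. It had 100 and 82.4 CPM in Il6ra-/- cells with hyper-IL-6, against 656 and 602 CPM in Il6ra-/- naive cells. Wild-type cells had 104 and 103 CPM with hyper-IL-6 and 91.7 and 104 CPM with IL-6, against 598 and 590 CPM in naive cells. The 6 cultured libraries stood apart from the 4 naive ones by a wide gap. Its log2 fold change was -2.79 ± 0.12 in Il6ra-/- cells with hyper-IL-6 (edgeR adjusted p = 6.01e-09), -2.52 ± 0.11 in wild-type cells with hyper-IL-6 (adjusted p = 1.11e-08) and -2.60 ± 0.11 in wild-type cells with IL-6 (adjusted p = 9.2e-09). After transfer Tgfbr2 was higher than before it. Il6ra-/- colon libraries had 555, 547 and 553 CPM, against 220 and 243 CPM in Il6ra-/- cells before transfer. Wild-type colon libraries had 527, 569 and 536 CPM, against 180 and 179 CPM before transfer. The 6 colon libraries lay within a narrow band, and Tgfbr2 rose by 1.25 ± 0.17 in Il6ra-/- cells (log2, edgeR adjusted p = 0.000477) and by 1.60 ± 0.18 in wild-type cells (log2, edgeR adjusted p = 0.000105).

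Tgfbr1 (ENSMUSG00000007613, chromosome 4, 47353222 to 47414931) encodes the type I receptor, the kinase that phosphorylates SMAD2 and SMAD3. It had 132 and 96.2 CPM in Il6ra-/- cells with hyper-IL-6, against 50 and 53.1 CPM in Il6ra-/- naive cells. In wild-type cells it had 174 and 179 CPM with hyper-IL-6 and 116 and 148 CPM with IL-6, against 47.0 and 58.4 CPM in naive cells. Every cultured library was above every naive one. Tgfbr1 rose by 1.15 ± 0.17 in Il6ra-/- cells with hyper-IL-6 (log2, edgeR adjusted p = 9.94e-05), by 1.75 ± 0.17 in wild-type cells with hyper-IL-6 (adjusted p = 3.97e-06) and by 1.32 ± 0.17 in wild-type cells with IL-6 (adjusted p = 3.53e-05). After transfer it had 85.8, 63.5 and 70.3 CPM in Il6ra-/- colon libraries, against 89.2 and 47.4 CPM before transfer (log2 fold change 0.10 ± 0.41, edgeR adjusted p = 0.892). Wild-type libraries had 81.0, 78.0 and 75.1 CPM in the colon, against 76.7 and 23.7 CPM before transfer (0.64 ± 0.42, edgeR adjusted p = 0.258). Both genotypes overlapped between the stages, and the spread before transfer was wide. Wild-type library 1 before transfer had the lowest Tgfbr1, Ski and Skil values of the transfer part, and with library 0 left out 7 of the 10 genes passed in wild-type cells, with Tgfbr1 (log2 fold change 1.74, edgeR adjusted p = 0.00394), Ski (0.57, adjusted p = 0.0371) and Skil (1.37, adjusted p = 0.00192) among them.

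Tgfbr3 (ENSMUSG00000029287, chromosome 5, 107106570 to 107289629), the gene of the coreceptor betaglycan, fell in culture beside Tgfbr2. It had 27.6 and 21.5 CPM in Il6ra-/- cells with hyper-IL-6, against 158 and 177 CPM in Il6ra-/- naive cells. Wild-type cells had 22.9 and 28.7 CPM with hyper-IL-6 and 25.8 and 27.4 CPM with IL-6, against 114 and 166 CPM in naive cells. The cultured and naive libraries did not overlap, and the log2 fold change was -2.77 ± 0.19 in Il6ra-/- cells with hyper-IL-6 (edgeR adjusted p = 2.47e-07), -2.44 ± 0.19 in wild-type cells with hyper-IL-6 (adjusted p = 6.5e-07) and -2.40 ± 0.19 in wild-type cells with IL-6 (adjusted p = 7.46e-07). Its values after transfer were 49.0, 61.3 and 69.3 CPM in Il6ra-/- colon libraries, against 96.1 and 79.5 CPM before transfer. In wild type they were 45.2, 57.8 and 56.4 CPM in the colon, against 123 and 46.2 CPM before transfer. Neither difference passed (log2 fold change -0.55 ± 0.34, edgeR adjusted p = 0.261 in Il6ra-/- cells; -0.67 ± 0.34, adjusted p = 0.147 in wild-type cells), though without wild-type library 1 before transfer the wild-type value was -1.24 (edgeR adjusted p = 0.00508). The same-strand transcript Gm43422 shares 4.54% of the exon bases of Tgfbr3 and is not counted apart.

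The receptor-activated SMADs also parted. Smad3 (ENSMUSG00000032402, chromosome 9, 63646767 to 63757994) encodes the SMAD that, with SMAD4, binds DNA directly. It had 177, 176 and 165 CPM in Il6ra-/- colon libraries, against 71.8 and 104 CPM in Il6ra-/- cells before transfer. In wild-type cells it had 182, 198 and 207 CPM in the colon, against 67.2 and 55.7 CPM before transfer. All 6 colon libraries were above all 4 libraries before transfer, and Smad3 rose by 0.97 ± 0.20 in Il6ra-/- cells (log2, edgeR adjusted p = 0.00567) and by 1.67 ± 0.21 in wild-type cells (log2, edgeR adjusted p = 0.000268). The Il6ra-/- call was at the edge without library 0 before transfer (0.71 ± 0.22, edgeR adjusted p = 0.0501). In culture Smad3 went the other way. It had 63.5 and 48.4 CPM in Il6ra-/- cells with hyper-IL-6, against 108 and 95.8 CPM in Il6ra-/- naive cells. Wild-type libraries had 66.8 and 56.6 CPM with hyper-IL-6 and 59.3 and 65.7 CPM with IL-6, against 95.9 and 109 CPM in naive cells. The log2 fold change was -0.86 ± 0.14 in Il6ra-/- cells with hyper-IL-6 (edgeR adjusted p = 0.000261), -0.73 ± 0.14 in wild-type cells with hyper-IL-6 (adjusted p = 0.000872) and -0.71 ± 0.14 in wild-type cells with IL-6 (adjusted p = 0.00103).

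Smad2 (ENSMUSG00000024563, chromosome 18, 76241580 to 76310963), the other receptor-activated SMAD, had 84.8 and 77.2 CPM in Il6ra-/- cells with hyper-IL-6, against 50.3 and 52.8 CPM in Il6ra-/- naive cells. Wild-type cells had 87.0 and 79.0 CPM with hyper-IL-6 and 83.7 and 80.4 CPM with IL-6, against 54.6 and 56.3 CPM in naive cells. The groups did not overlap, and the rises of 0.65 ± 0.09 (edgeR adjusted p = 8.36e-05), 0.58 ± 0.09 (adjusted p = 2e-04) and 0.57 ± 0.09 (adjusted p = 0.000248) on the log2 scale, in that order of cultures, were opposite in sign to the changes of Smad3. In the colon Smad2 had 58.9, 55.7 and 52.9 CPM in Il6ra-/- libraries, against 83.3 and 68.9 CPM before transfer. In wild-type cells it had 54.8, 56.4 and 55.8 CPM in the colon, against 78.6 and 60.9 CPM before transfer. The colon values were the lower ones in both genotypes without overlap, and neither difference passed (-0.45 ± 0.18, edgeR adjusted p = 0.0928 in Il6ra-/- cells and -0.33 ± 0.18, adjusted p = 0.184 in wild-type cells). In the compared groups only, the Il6ra-/- difference passed (-0.49 ± 0.15, edgeR adjusted p = 0.0488).

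Smad7 (ENSMUSG00000025880, chromosome 18, 75367529 to 75395935) encodes the inhibitory SMAD that is itself induced by TGF-beta and ends receptor signalling. Of the 10 genes it had the largest fold change between naive and cultured cells in all 3 cultures. It had 40.0 and 37.0 CPM in Il6ra-/- cells with hyper-IL-6, against 543 and 441 CPM in Il6ra-/- naive cells. Wild-type libraries had 45.6 and 46.3 CPM with hyper-IL-6 and 40.0 and 44.2 CPM with IL-6, against 430 and 330 CPM in naive cells. The lowest naive library was thus far above the highest cultured one. The log2 fold change was -3.67 ± 0.15 in Il6ra-/- cells with hyper-IL-6 (edgeR adjusted p = 5.82e-09), -3.05 ± 0.15 in wild-type cells with hyper-IL-6 (adjusted p = 1.78e-08) and -3.17 ± 0.15 in wild-type cells with IL-6 (adjusted p = 1.38e-08). After transfer Smad7 was at 149, 166 and 171 CPM in Il6ra-/- colon libraries, against 68.6 and 81.9 CPM before transfer. Wild-type colon libraries had 135, 154 and 120 CPM, against 57.9 and 73.7 CPM before transfer. All colon libraries were above all libraries before transfer, and the gene rose by 1.11 ± 0.20 in Il6ra-/- cells (log2, edgeR adjusted p = 0.00246) and by 1.05 ± 0.20 in wild-type cells (log2, edgeR adjusted p = 0.00301).

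Ski and Skil encode the SMAD corepressors. Ski (ENSMUSG00000029050, chromosome 4, 155154075 to 155222592) had 287 and 353 CPM in Il6ra-/- cells with hyper-IL-6, against 510 and 496 CPM in Il6ra-/- naive cells. Wild-type cells had 273 and 286 CPM with hyper-IL-6 and 340 and 335 CPM with IL-6, against 413 and 477 CPM in naive cells. No cultured library reached a naive one, and the log2 fold change was -0.65 ± 0.11 in Il6ra-/- cells with hyper-IL-6 (edgeR adjusted p = 0.000325), -0.67 ± 0.11 in wild-type cells with hyper-IL-6 (adjusted p = 0.000275) and -0.40 ± 0.11 in wild-type cells with IL-6 (adjusted p = 0.00791). Skil (ENSMUSG00000027660, chromosome 3, 31095058 to 31122577) had 242 and 186 CPM in Il6ra-/- cells with hyper-IL-6, against 260 and 219 CPM in Il6ra-/- naive cells. In wild-type cells it had 240 and 251 CPM with hyper-IL-6 and 224 and 232 CPM with IL-6, against 197 and 200 CPM in naive cells. It passed only in wild-type cells with hyper-IL-6 (0.31 ± 0.13, edgeR adjusted p = 0.0489), a call lost with DESeq2 (0.28, adjusted p = 0.0568) and in each of the 4 fits without 1 of the compared libraries (adjusted p of 0.0878 to 0.178). After transfer, Ski had 348, 382 and 357 CPM in Il6ra-/- colon libraries, against 389 and 315 CPM before transfer, and 349, 386 and 392 CPM in wild-type colon libraries, against 416 and 257 CPM before transfer. Skil had 296, 315 and 318 CPM in Il6ra-/- colon libraries, against 299 and 226 CPM before transfer, and 244, 296 and 306 CPM in wild-type colon libraries, against 358 and 111 CPM before transfer. Both genes overlapped between the stages in each genotype and did not pass.

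**Figure D2:**
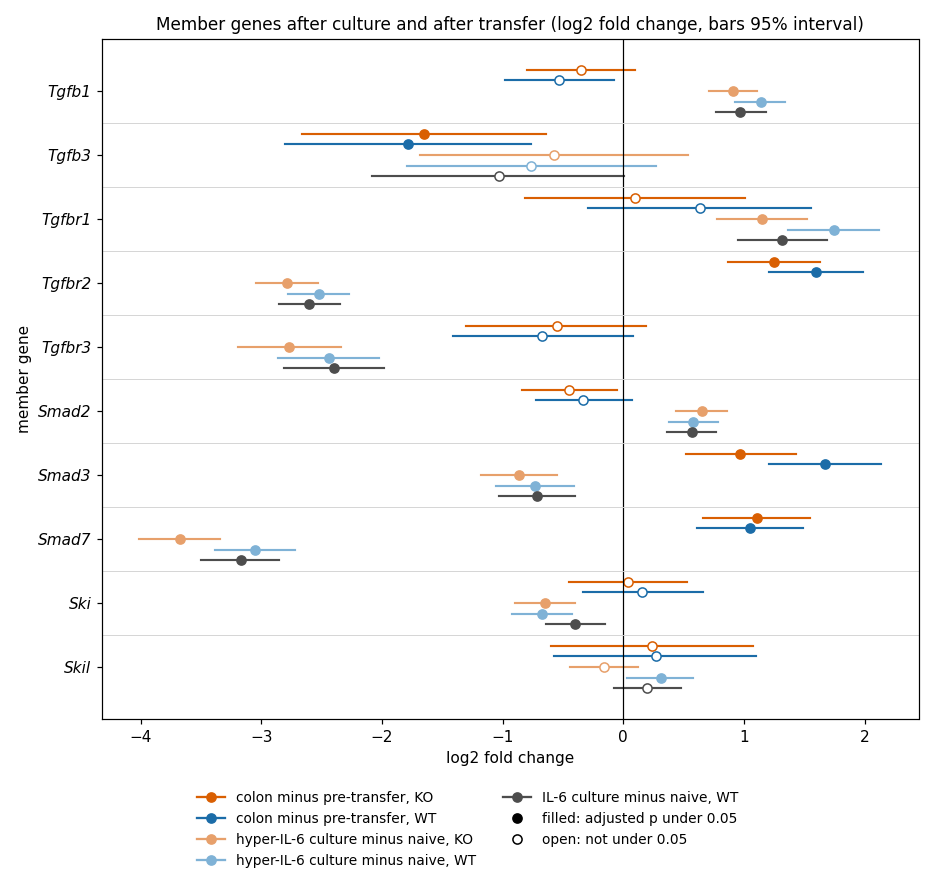
Log2 fold change (horizontal axis) of each of the 10 genes, with 95% intervals as bars and filled points where the adjusted p was under 0.05, for colon cells against cells before transfer and for cultured against naive cells, each in the genotypes and cytokines available. Tgfbr2 and Smad7 lie above 1 after transfer and below -2 after culture, and Tgfbr1 lies above 1 after culture.

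Compared per length within a library, the balance between the receptor chains and between the SMADs differed between cultured and naive libraries. Lengths were the exon bases of the annotation, so these ratios compare CPM per kb and not proteins. Tgfbr2 was 0.604 and 0.687 times Tgfbr1 in Il6ra-/- cells with hyper-IL-6, against 10.5 and 9.04 times in Il6ra-/- naive cells. In wild type the ratio was 0.476 and 0.458 with hyper-IL-6 and 0.633 and 0.562 with IL-6, against 10.2 and 8.05 in naive cells. Cultured cells thus had less Tgfbr2 than Tgfbr1 per length in all 6 libraries, and naive cells had more in all 4. The ratio after transfer was 5.17, 6.87 and 6.25 in Il6ra-/- colon libraries, against 1.96 and 4.10 before transfer. In wild type it was 5.19, 5.84 and 5.70 in the colon, against 1.88 and 6.05 before transfer, so the wild-type stages overlapped. The high value of 6.05 came from wild-type library 1, where Tgfbr1 was at 23.7 CPM.

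The Smad3 to Smad2 ratio per length was 4.76, 5.02 and 4.93 in Il6ra-/- colon libraries, against 1.37 and 2.40 before transfer. It was 5.27, 5.58 and 5.88 in wild-type colon libraries, against 1.35 and 1.46 before transfer. Both genotypes had no overlap between the stages. In culture it was 1.19 and 0.993 in Il6ra-/- cells with hyper-IL-6, against 3.40 and 2.88 in Il6ra-/- naive cells. In wild type it was 1.22 and 1.13 with hyper-IL-6 and 1.12 and 1.30 with IL-6, against 2.78 and 3.06 in naive cells. Cultured cells had both SMADs at a like level per length, and naive and colon cells had more Smad3. Tgfb1 was 4.44 to 5.42 times Tgfb3 in Il6ra-/- colon libraries, against 6.84 and 0.995 times before transfer. It was 7.05 to 10.2 times Tgfb3 in wild-type colon libraries, against 4.24 and 3.36 times before transfer, and 102 to 639 times in the culture part. In Il6ra-/- library 1 before transfer both ligands were thus at about the same level per length.

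**Figure D3:**
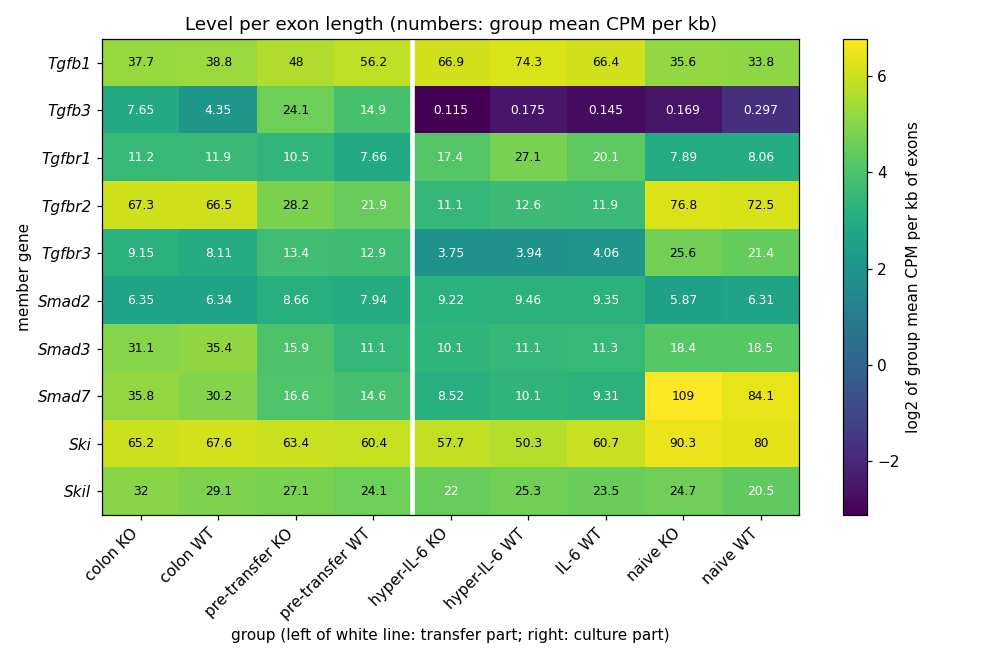
Mean CPM per kb of exon of each of the 10 genes (vertical) in the 9 groups (horizontal), printed in each cell and coloured on a log2 scale. Per length, Tgfbr2 stands at 11.1 to 12.6 in the 3 cultured groups, below Tgfbr1 at 17.4 to 27.1, and at 72.5 to 76.8 in naive cells, far above Tgfbr1.

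None of the 10 genes passed between genotypes at any stage, and the test of whether the genotypes differed in their change found none either. In the colon, the comparison of Il6ra-/- with wild-type cells of the same hosts, 0 of 10 passed with edgeR and 0 with DESeq2, 0 had an unadjusted p under 0.05, and 0.155% of all genes passed (0.0633% higher and 0.0914% lower; 22 of 14225, or 94 with the replicate number as a block within each stage, which called 0 of the 10). With any 1 colon library left out, 0 to 8 genes passed over all genes and 0 of the 10. Before transfer 0 of 10 passed with either tool, 1 had an unadjusted p under 0.05, and 0.00703% of all genes passed (1 gene; 5 with the block). In naive cells 0 passed with either tool, 1 had an unadjusted p under 0.05, and 0.0067% of all genes passed (1 gene, and 918 without wild-type naive library 2, of which 0 were among the 10). With hyper-IL-6 in culture 0 passed with either tool, 1 had an unadjusted p under 0.05, and 0% of all genes passed (351 of 14926 had an unadjusted p under 0.05). For the change from before transfer to colon 0 passed with either tool, 1 had an unadjusted p under 0.05, and 0% of genes passed (377 had an unadjusted p under 0.05, and 621 passed without wild-type library 0 before transfer, 0 of them among the 10). For the change from naive to hyper-IL-6 culture 0 passed with either tool, 3 had an unadjusted p under 0.05, and 0% of genes passed (1267 had an unadjusted p under 0.05, and 380 passed without wild-type naive library 2, 0 of them among the 10). A p that misses the threshold does not show equal levels, so the intervals are given for the genes that bear on it.

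Tgfb3 differed most between genotypes in the colon, at 25.9 ± 1.03 CPM in Il6ra-/- libraries and 14.7 ± 1.08 CPM in wild-type libraries (SD, n = 3 each). The lowest Il6ra-/- library (24.9 CPM) was above the highest wild-type library (15.7 CPM), so any pairing of these libraries goes the same way. The log2 fold change was 0.81 ± 0.42, with a 95% interval of -0.12 to 1.75 (edgeR adjusted p = 1). The spread behind this interval was estimated over all 10 libraries of the transfer part. Among these, Il6ra-/- cells before transfer had 27.9 and 135 CPM. With the 6 colon libraries alone the log2 fold change was 0.80 ± 0.13 (edgeR adjusted p = 0.047), or adjusted p = 0.0364 with the block added after seeing the data. Some markers of other T cells moved with it in the same libraries. The summed level of the 2 CD8 T cell markers was 27.8, 68.5 and 75.9 CPM in Il6ra-/- colon libraries, against 13.7, 18 and 22.1 CPM in wild-type colon libraries. The 5 regulatory T cell markers overlapped in their sum, at 928 to 1480 CPM in Il6ra-/- and 736 to 2040 CPM in wild-type colon libraries, but Foxp3 (35.7 to 88.8 CPM, against 19.3 to 23.7 CPM), Ikzf2 (60.3 to 147 CPM, against 25.2 to 34.8 CPM), Il2ra (160 to 195 CPM, against 80.1 to 142 CPM) and Lrrc32 (7.9 to 12.4 CPM, against 0.984 to 4.54 CPM) did not overlap, all 4 higher in Il6ra-/- libraries. The remaining marker, Ctla4, went the other way, at 522 CPM in Il6ra-/- and 601 CPM in wild-type colon cells of library 0. In libraries 1 and 2 the sum of the 5 markers was lower in Il6ra-/- cells (1310 and 1480 CPM, against 1630 and 2040 CPM). As the other 4 were higher there, Ctla4 was lower in Il6ra-/- cells in these libraries too. How many of all genes part without overlap in these libraries was not counted. None of these markers passed between genotypes in the colon, and their part in the Tgfb3 values was not tested. Smad3 was also without overlap there, at 173 ± 6.78 CPM in Il6ra-/- and 196 ± 12.5 CPM in wild-type libraries, and its log2 fold change of -0.18 had an interval of -0.57 to 0.21. For the receptor gene Tgfbr2 the colon difference was 0.02 (interval -0.31 to 0.35), for Smad2 0.00 (-0.36 to 0.36) and for Tgfb1 -0.04 (-0.45 to 0.37). A genotype difference in these 3 genes of more than 0.45 on the log2 scale, in either direction, lay outside the intervals. Tgfbr1 (-0.90 to 0.72) and Skil (-0.61 to 0.88) had wider intervals, which hold larger differences. Their spread also takes in the cells before transfer, where wild-type libraries had 76.7 and 23.7 CPM of Tgfbr1 and 358 and 111 CPM of Skil.

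Before transfer, Smad3 had 71.8 and 104 CPM in Il6ra-/- libraries, against 67.2 and 55.7 CPM in wild-type libraries, a log2 fold change of 0.52 (interval 0.03 to 1.0, edgeR adjusted p = 0.982). Tgfbr2 had 220 and 243 CPM in Il6ra-/- libraries, against 180 and 179 CPM in wild-type libraries (0.37, interval -0.03 to 0.77, edgeR adjusted p = 0.982). Neither pair of groups overlapped and neither passed. In fits without wild-type library 0 before transfer, Tgfbr1 (1.54, edgeR adjusted p = 0.0308) and Skil (1.26, adjusted p = 0.017) passed, with 1193 genes in all, against 2 genes in all without wild-type library 1 and 0 of the 10. In naive cells, Smad7 had 543 and 441 CPM in Il6ra-/- libraries, against 430 and 330 CPM in wild-type libraries (0.37 ± 0.14, interval 0.07 to 0.67, edgeR adjusted p = 0.41). With hyper-IL-6, Tgfbr1 had 132 and 96.2 CPM in Il6ra-/- cells, against 174 and 179 CPM in wild-type cells (-0.63 ± 0.16, interval -0.99 to -0.27, edgeR adjusted p = 1). These groups were apart in their 2 libraries each, as were those of Tgfb1, Tgfb3, Tgfbr2, Smad2, Ski and Skil in naive cells. With hyper-IL-6, Tgfb1, Tgfb3, Tgfbr2, Smad7 and Ski were apart as well. The share of all genes apart in this way was not counted, so separation here and before transfer is no result about these genes. Of the alternatives run, only the fit without the filter on low counts called Smad7 in naive cells or Tgfbr1 with hyper-IL-6. The edgeR adjusted p was 0.0464 for Smad7 and 0.000107 for Tgfbr1.

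**Figure D4:**
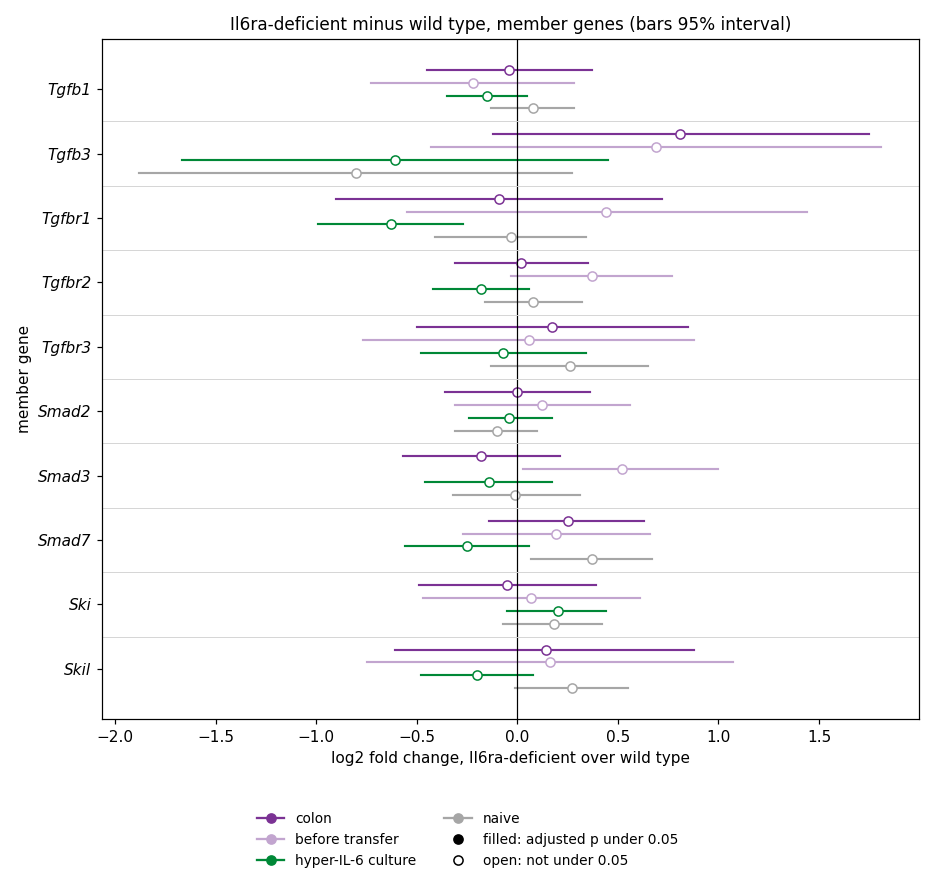
Log2 fold change of Il6ra-/- over wild-type cells for each of the 10 genes in the colon, before transfer, in hyper-IL-6 culture and in naive cells, with 95% intervals as bars. The interval for Tgfb3 in the colon spans -0.12 to 1.75, and no gene passes after adjustment.

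Between the cytokine regimens in wild-type cells, hyper-IL-6 at 63 ng/ml and IL-6 at 20 ng/ml, which differ in both agent and dose, 0 of the 10 genes passed with edgeR and 0 with DESeq2. An unadjusted p under 0.05 was found for 2 of the 10, and 0% of all genes passed (226 had an unadjusted p under 0.05). Tgfbr1 had 174 and 179 CPM with hyper-IL-6, against 116 and 148 CPM with IL-6 (log2 fold change 0.43, interval 0.07 to 0.79, edgeR adjusted p = 1). Ski had 273 and 286 CPM with hyper-IL-6, against 340 and 335 CPM with IL-6 (-0.27, interval -0.52 to -0.03, edgeR adjusted p = 1). Neither gene overlapped between the cytokines, and neither did Tgfb1, Smad7 or Skil. How many of all genes were apart between the cytokines was not counted, so this separation is no result about these genes. The Tgfbr2 difference was 0.08 (interval -0.17 to 0.32).

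The wider pathway was read from 5 lists of other genes. Of all genes, 13.8% rose and 13.2% fell in colon Il6ra-/- cells, and 17.1% rose and 15.8% fell in wild-type ones. No list was tested against these shares. Of 14 genes tested from the list of ligands and latency proteins, 5 rose and 3 fell in colon Il6ra-/- cells against cells before transfer, and 6 rose and 3 fell in wild-type cells. Lrrc32, which holds latent TGF-beta at the cell surface (GARP), averaged 10.1 ± 2.24 CPM in Il6ra-/- colon libraries and 96.4 ± 104 CPM before transfer (log2 fold change -3.25, edgeR adjusted p = 0.0144). Among wild-type libraries it averaged 2.62 ± 1.79 CPM in the colon and 67.8 ± 64.9 CPM before transfer (-4.65, edgeR adjusted p = 0.00311). Itgb6, a chain of a TGF-beta-activating integrin of epithelia, averaged 0.387 CPM in Il6ra-/- and 0.921 CPM in wild-type colon libraries and had no count before transfer, and epithelial markers were higher in the same libraries. Inha, an inhibin chain, fell in both genotypes, to 0.548 CPM in Il6ra-/- colon libraries, against 6.08 CPM before transfer, and to 0.447 CPM in wild-type colon libraries, against 9.69 CPM before transfer.

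Of 10 other receptor genes, 5 fell and 0 rose in colon Il6ra-/- cells, and 5 fell and 1 rose in wild-type cells. Acvrl1, a type I receptor for BMPs and TGF-beta known from endothelium, averaged 1.21 ± 0.43 CPM in Il6ra-/- colon libraries and 47.1 ± 36.0 CPM before transfer (log2 fold change -5.25, edgeR adjusted p = 0.000189). In wild type it averaged 0.985 ± 0.57 CPM in the colon and 57.4 ± 31.1 CPM before transfer (-5.80, edgeR adjusted p = 0.000104). The coreceptor gene Eng fell as well, to 0.977 CPM in Il6ra-/- colon libraries, against 5.61 CPM before transfer, and to 1.44 CPM in wild-type ones, against 6.00 CPM. Fkbp1a, which binds and restrains type I receptors, averaged 157 ± 6.96 CPM in Il6ra-/- colon libraries and 388 ± 31.6 CPM before transfer (-1.30, edgeR adjusted p = 0.00338). Of 10 signalling genes, 0 rose and 1 fell in Il6ra-/- cells (Zfyve9, the SMAD anchor SARA) and 3 rose and 0 fell in wild-type cells. Smad4, the shared partner of the activated SMADs, was among these 3, at 79.6 ± 1.65 CPM in the wild-type colon and 49.1 ± 0.10 CPM before transfer (0.70 ± 0.20, edgeR adjusted p = 0.0229).

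Of 12 feedback and ubiquitin genes, 2 rose and 1 fell in colon Il6ra-/- cells, and 4 rose and 2 fell in wild-type cells. Smurf2, a ubiquitin ligase that SMAD7 brings to the receptor, averaged 155 ± 33.7 CPM in Il6ra-/- colon libraries and 68.6 ± 4.59 CPM before transfer (log2 fold change 1.17, edgeR adjusted p = 0.0184). Of 13 genes known as TGF-beta targets, 4 rose and 3 fell in Il6ra-/- cells, and 5 rose and 4 fell in wild-type cells, so the list did not move one way. Itgae, the integrin chain CD103 that holds T cells at E-cadherin, averaged 427 ± 142 CPM in Il6ra-/- colon libraries and 12.3 ± 5.64 CPM before transfer (5.11 ± 0.54, edgeR adjusted p = 8.23e-05). Among wild-type libraries it averaged 408 ± 55.2 CPM in the colon and 13.4 ± 8.86 CPM before transfer (4.93 ± 0.53, edgeR adjusted p = 9.46e-05). Tgfbi, a matrix protein gene also expressed by macrophages, averaged 34.5 ± 25.0 CPM in Il6ra-/- and 35.8 ± 22.7 CPM in wild-type colon libraries, against 0.769 and 0.621 CPM before transfer, and macrophage markers were higher in the same libraries. Foxp3, the regulatory T cell factor, was among the largest changes of the list in Il6ra-/- cells, at 56.1 ± 28.6 CPM in the colon and 8.93 ± 9.49 CPM before transfer (2.65, edgeR adjusted p = 0.0158). In wild-type cells Foxp3 averaged 22.2 ± 2.48 CPM in the colon and 5.44 ± 1.80 CPM before transfer (2.03, edgeR adjusted p = 0.0411). Of the 5 regulatory T cell markers, 2 rose (Foxp3, Ikzf2) and 2 fell (Il2ra, Lrrc32) in each genotype, and Il2ra, the IL-2 receptor alpha chain, averaged 182 ± 19.1 CPM in Il6ra-/- colon libraries and 1090 ± 123 CPM before transfer (-2.58, edgeR adjusted p = 0.000132). The share of other cells in these values was not tested.

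In culture, 6 of 14 ligand and latency genes rose and 2 fell in Il6ra-/- cells with hyper-IL-6, 7 rose and 3 fell in wild-type cells with hyper-IL-6, and 8 rose and 4 fell with IL-6. Of all genes, 70.3% to 72% passed in these comparisons, so counts of this and the other lists are read beside that share. Inhba, which encodes the activin A subunit, averaged 108 ± 35.2 CPM in Il6ra-/- cells with hyper-IL-6 and 0.2 CPM in naive cells. In wild type Inhba averaged 122 ± 6.11 CPM with hyper-IL-6 and 113 ± 65.3 CPM with IL-6, against 0.0244 CPM in naive cells. Thbs1, the gene of an activator of latent TGF-beta, averaged 31.0 ± 9.11 CPM in Il6ra-/- cells with hyper-IL-6, against 0.155 CPM in naive cells, and 39.1 ± 4.41 CPM with hyper-IL-6 in wild type, where naive cells had no count. Of 11 receptor genes, 6 rose and 4 fell in Il6ra-/- cells, and 7 rose and 3 fell in wild-type cells with either cytokine. Acvrl1 averaged 0.358 ± 0.03 CPM in Il6ra-/- cells with hyper-IL-6 and 52.1 ± 0.52 CPM in naive cells (log2 fold change -7.17, edgeR adjusted p = 1.13e-09). The BMP and activin receptor genes Bmpr1a and Acvr1 rose, Bmpr1a to 32.8 ± 2.20 CPM in Il6ra-/- cells with hyper-IL-6, against 3.18 ± 0.62 CPM in naive cells, and Acvr1 to 15.5 ± 0.75 CPM, against 0.0845 CPM.

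Of 11 signalling genes, 3 rose and 6 fell in Il6ra-/- cells with hyper-IL-6, and 4 rose and 6 fell in wild-type cells with either cytokine. Smad4 averaged 70.5 ± 0.44 CPM in Il6ra-/- cells with hyper-IL-6 and 180 ± 9.52 CPM in naive cells (log2 fold change -1.35, edgeR adjusted p = 9.7e-07), and 76.6 ± 2.89 CPM in wild-type cells with hyper-IL-6 and 169 ± 27.1 CPM in naive cells (-1.14, edgeR adjusted p = 3.76e-06). Smad4 thus fell beside Smad3, while Smad2 rose. Of 13 feedback genes, 4 rose and 7 fell in each of the 3 cultures. Nedd4l averaged 4.87 ± 0.07 CPM in Il6ra-/- cells with hyper-IL-6 and 38.9 ± 7.95 CPM in naive cells (-3.00, edgeR adjusted p = 5.37e-08), and Smurf2 averaged 42.3 ± 3.16 CPM in Il6ra-/- cells with hyper-IL-6 and 160 ± 12.4 CPM in naive cells (-1.92, edgeR adjusted p = 3.97e-08). Of 12 target genes, 8 rose and 2 fell in Il6ra-/- cells, and 7 rose and 3 fell in wild-type cells with either cytokine. Cdkn1a, a cell-cycle inhibitor gene, averaged 74.0 ± 13.8 CPM in Il6ra-/- cells with hyper-IL-6 and 0.214 CPM in naive cells. Between genotypes 0 genes of the 5 lists passed in edgeR in the colon (6 of 59 had an unadjusted p under 0.05, as did 648 of all 14225 genes), before transfer (1 of 59, and 345 of all genes), in hyper-IL-6 culture (5 of 61, and 351 of all 14926) or in naive cells (5 of 61, and 1554 of all genes). Between hyper-IL-6 and IL-6 0 passed too (2 of 61 had an unadjusted p under 0.05, and 226 of all genes).

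Ordered by mean level within the transfer part, Tgfbr2, Smad3 and Smad7 were highest in the colon groups and Tgfb3, Smad2 and Tgfb1 in the groups before transfer. By mean, Tgfbr1, Ski and Skil were also highest in the colon groups and Tgfbr3 before transfer, but the wild-type stages overlapped for each of these. The mean levels of Tgfbr2 ran from 551 CPM in Il6ra-/- colon cells and 544 CPM in wild-type colon cells to 232 CPM in Il6ra-/- and 179 CPM in wild-type cells before transfer. The colon groups of both genotypes overlapped for each of the 10 genes except Tgfb3 and Smad3. Within the culture part, Tgfbr2, Tgfbr3, Smad3, Smad7 and Ski were highest in both naive groups, and Tgfb1, Tgfbr1 and Smad2 were highest in the 3 cultured groups. Neighbouring cultured groups in that order overlapped for Tgfbr2, Tgfbr3, Smad2 and Smad3.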

How the data were processed

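RNA of 20 mouse CD4 T cell libraries was sequenced, with a stranded mRNA kit in the transfer part per the labels' protocols. The authors deposited raw read counts per gene, 39179 gene IDs and 5 summary lines a library. The submitters' processing notes name HTSeq 0.7.2, STAR 2.5.3, SAMtools 0.1.18, R 3.4.3, DESeq2 1.18.1 and build GRCm38. The strand setting, the annotation release and the kit of the culture part are not given in the sources used here.

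Summary lines were left out, among them reads in no gene (transfer part 18.1% to 30.8% and culture part 21.1% to 31.9% of uniquely aligned reads). Symbols, positions and exon lengths came from GENCODE M21, which held 37693 of the IDs. The parts were fitted apart in R 4.3.3 with edgeR 4.0.16 (quasi-likelihood F test, TMM, filter by expression per group, group as the only factor), on 14225 and 14926 genes whose common biological coefficients of variation were 0.309 (transfer) and 0.124 (culture). In each of 12 comparisons, p-values were adjusted over all genes tested (Benjamini-Hochberg) and a gene passed under 0.05. Intervals are 95%.

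The 10 genes were named in every comparison, with up to 4 of the largest changes of each wider list. Genes and lists were chosen with earlier results of these data known. Some genes that the naming rule takes are not reported here. Fitted folds are not printed for genes with little or no count in a group. Likeness of pattern was Pearson's r of log2 CPM (prior count 2) centred within each part of the series.

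Alternatives were DESeq2 1.42.0, RLE scaling, a stricter filter or none, only the compared groups, a block for the replicate number, a term for the experiment, and fits without each library in turn. The block with the compared groups only was added after seeing the data. In the transfer part number 0 marks the first and numbers 1 and 2 the second experiment, per the labels. Deviations of same-numbered libraries correlated at 0.58, 0.237 and 0.183 in the colon, at 0.43 before transfer and at -0.143 to 0.0793 across stages. The numbers were taken to pair libraries within a stage. They also mark the experiment, and number 1 was not compared with number 2, so these values cannot show how libraries 1 and 2 pair. Libraries of 1 group always differed by more than sampling noise (mean chi-square per gene of 6.72 to 238). The tests were tested on simulated counts.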

Additional observations from a re-analysis of the deposited data

Results flagged for a closer look

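Smad3 differed in opposite directions between the genotypes in the colon and before transfer. It was lower in Il6ra-/- cells in the colon (165 to 177 CPM, against 182 to 207 CPM in wild type) and higher in Il6ra-/- cells before transfer (71.8 and 104 CPM, against 67.2 and 55.7 CPM in wild type), with no overlap at either stage. The difference between both effects was -0.70 ± 0.28 on the log2 scale (unadjusted p = 0.0307, edgeR adjusted p = 0.953), so it did not pass. This opposite pattern without overlap was seen in 1.01% of 14225 genes.

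Tgfb1, Tgfbr2 and Smad7 were each lower in Il6ra-/- than in wild-type cells with hyper-IL-6 and higher in Il6ra-/- than in wild-type naive cells, in every library. The difference between both effects was -0.23 ± 0.13 for Tgfb1 (edgeR adjusted p = 0.608), -0.26 ± 0.15 for Tgfbr2 (adjusted p = 0.613) and -0.63 ± 0.20 for Smad7 (unadjusted p = 0.00884, edgeR adjusted p = 0.556). None passed, and 8.26% of 14926 genes showed the pattern in these 2 libraries a group.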

How the results depend on the processing

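No value of the 10 genes reversed a call under any alternative run. Of the values with a test, 760 kept their side of the threshold in other settings, 8 gained a call and 5 lost one, and with 1 library left out these were 603, 7 and 10. In the colon, 1 of the 10 passed between genotypes (Tgfb3) in the compared groups only and again with the block added, against 0 as reported. Without the filter on low counts 1 passed in naive cells (Smad7), 1 in hyper-IL-6 culture (Tgfbr1) and 2 for the difference between both, against 0 each. With 1 library left out, 0 to 2 passed between genotypes before transfer 3 (against 4 as reported) in Il6ra-/- colon cells against cells before transfer and 4 to 7 in wild-type ones, the highest without wild-type library 0 before transfer. Tgfb3 in Il6ra-/- colon cells missed the threshold in the compared groups only (-1.68, adjusted p = 0.0564), with the block across stages (-1.50, 0.0504) and without any 1 Il6ra-/- colon library (0.0598 to 0.0625). The cause of these changes was not tested.

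Over all genes, the colon genotype count of 22 was 120 without the filter, 133 with DESeq2, 106 in the compared groups only, 94 with the block, 42 with the experiment term, 280 with the compared groups and block, and 0 to 8 with 1 library left out. Before transfer, the count of 1 was 17, 26, 0, 5, 2 and 20 in these settings, and 0 to 1193. For the difference between stages, 0 was 13 without the filter, 12 with DESeq2, 1 with the block and up to 621. In naive cells, 1 was 439 without the filter, 80 with DESeq2, 11 in the compared groups only, 0 with the block and 0 to 918. In hyper-IL-6 culture, 0 was 74, 3 with DESeq2 and up to 1. Between the cytokines it was 36 and 5, and for the difference between culture and naive cells 271, 26 and up to 380. Culture replicate numbers did not pair libraries (correlations of -0.164 to 0.156), and the block changed no call of the 10 genes there. Groups of 2 or 3 libraries, and 10 to 27 reads for Tgfb3 in the culture part, limit the precision.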

Other observations

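Likeness of pattern was taken over the 20 libraries, centred within each part of the series, among 9294 named protein-coding genes. These libraries share the large changes in culture and transfer, so r is a description. The pattern of Tgfbr2 was most like Entpd5 (r = 0.995) and Spata13 (0.995), that of Smad7 like Rasgrp2 (0.993), among others, and that of Smad3 like Plcxd2 (0.972) and Tmx4 (0.971). For Tgfb1 they were Hsd17b12 (0.977) and Nacc1 (0.976), for Tgfbr3 Ttc28 (0.971) and Plekhg2 (0.966), and for Tgfbr1 Ptpn11 (0.959) and Slc29a3 (0.942). Ski and Skil had less close partners, Ezr (0.912) and Eif2ak2 (0.905) for Ski and Mrs2 (0.94) and Osbpl11 (0.939) for Skil. Tgfb3 was closest to Lrrc32 (0.871), the latent TGF-beta anchor described above, and Ust (0.869).

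Lrrc32 and Tgfb3 were both highest in Il6ra-/- library 1 before transfer among the 10 libraries of the transfer part.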
